A study of Mus musculus with 12 samples.

Results

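The genes described here are the classical cadherins Cdh1, Cdh2, Cdh3 and Cdh11 and the adhesion protein gene Epcam, 5 of the 32285 genes in the count table. They were chosen by symbol, as the genes of the cadherin switch and of epithelial adhesion, and matched by Ensembl ID. All 5 were among the 18693 genes that passed the filter on low counts. Each is described across 6 groups of mouse embryonic stem (ES) cells and embryoid bodies, with 2 RNA sequencing libraries in each group.

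The cells were labelled E14Tg2a.IV, a mouse ES cell line, throughout. There were 3 genotypes, namely wild type (WT), a double knockout of Smad2 and Smad3 (S23DKO) and a knockout of Smad4 (S4KO). Day 0 cells were ES cells, and day 4 cells were embryoid bodies, aggregates that differentiate once LIF is withdrawn. The S23DKO day 0 libraries had more RNA of trophectoderm markers than the other day 0 libraries, as given below. Nodal, activin and TGF-beta receptors act on transcription through Smad2 and Smad3, and Smad4 is a common partner of these and of the Smads that answer BMP. The labels do not say whether a knockout line was 1 clone or several, nor whether the replicates were separate cultures. The p-values therefore measure the spread between these samples, which may be technical.

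Classical cadherins are calcium-dependent proteins that join a cell to its neighbour through like cadherins on both sides, while their cytoplasmic tails bind catenins and through them actin. Cdh1 encodes E-cadherin, which holds ES cells and epiblast together, and Cdh2 encodes N-cadherin, which appears when epiblast cells enter the primitive streak and become mesoderm. The exchange of the first for the second is called the cadherin switch. Epcam marks epithelia and undifferentiated ES cells, and its protein is cleaved by membrane proteases and binds claudin-7. Repressors of the Snail and Zeb families silence Cdh1 in many epithelia by binding E-box motifs with the letters CACCTG, or CAGGTG when read on the other strand.

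The promoter of Epcam is shown because a sequence was found for no other gene of the set. The cadherin promoters, that of Cdh1 among them, were therefore not searched for the E-box of the repressors named above. The sequence is the 250 bases before the RefSeq start of Epcam, chr17:87635729-87635978 on the plus strand of GRCm38.p6, 5′ to 3′, with the letters CACCTG and CAGGTG in capitals.
Epcam: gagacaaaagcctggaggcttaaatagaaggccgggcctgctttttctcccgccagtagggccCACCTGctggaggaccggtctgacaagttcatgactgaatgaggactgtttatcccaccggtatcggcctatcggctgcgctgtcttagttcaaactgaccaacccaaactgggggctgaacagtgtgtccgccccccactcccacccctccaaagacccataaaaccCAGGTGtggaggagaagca
The first match lies at -187 to -182 and the second at -19 to -14, counted from the start site, and together they make 1 match on each strand. Of 32851 promoters searched over the same length on both strands, 17.2% held at least 1 match and 2.06% held 2 or more. A match is a description of letters and not of binding.

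On build GRCm38 (mm10) with GENCODE M21, Cdh1 (ENSMUSG00000000303) spans chromosome 8, 106603351 to 106670246, on the plus strand. Cdh3 (ENSMUSG00000061048), which encodes P-cadherin, lies 46053 bases before it on the same strand, at 106510891 to 106557297. Cdh11 (ENSMUSG00000031673), the type II cadherin of mesenchyme, is on the minus strand of the same chromosome at 102632095 to 102785642. Cdh2 (ENSMUSG00000024304) spans chromosome 18, 16588877 to 16809246, on the minus strand, and Epcam (ENSMUSG00000045394) chromosome 17, 87635979 to 87651129, on the plus strand. None of the 5 shares exon bases with another annotated gene. The antisense gene model Gm15485 lies across Cdh2 and had 0 counts in the 12 libraries.

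Total counts ran from 31566376 to 55806858 per library. Both WT day 0 libraries stood apart, with 15.0% and 11% of counts in ribosomal-protein genes against 5.01% to 7.84% in the other 10. S23DKO day 0 replicate 2 had 6.74% of counts in mitochondrial genes, against 1.87% to 3.93% in the others. The targeted genes were still transcribed: in S23DKO, Smad2 was at 37.8 to 48.3 CPM (counts scaled to the library size) and Smad3 at 13.1 to 31.3 CPM, and in S4KO, Smad4 was at 79.6 to 144 CPM. A count over the whole gene does not test the knockouts, because the edited exons are not given in the labels. Hprt, the gene whose loss defines the parental E14Tg2a line, was at 169 to 212 CPM in the S4KO libraries and at no more than 0.724 CPM in the other 8, so the S4KO libraries go against that label. The summed Y-linked Uty, Ddx3y and Eif2s3y were at 2.92 CPM or less in S23DKO and at 73.3 CPM or more in the other libraries. Genotype therefore cannot be told apart from other differences between the lines in any comparison between genotypes below.

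In WT cells, Cdh2 and Cdh11 came on by day 4 while Cdh1 rose rather than fell. Cdh2 rose 19.3-fold and Cdh11 36.6-fold, Cdh1 rose 1.86-fold, and Cdh3 and Epcam did not pass the test. Without Smad2 and Smad3, neither Cdh2 nor Cdh11 passed the test over the 4 days, and the days overlapped for both. Without Smad4, Cdh2 and Cdh11 had day 4 levels between those of S23DKO and WT. In bulk RNA, fewer cells that express a gene and less of its RNA per cell cannot be told apart.

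Cdh1 was the most abundant of the 4 cadherins in every library. Its level, as CPM after scaling by edgeR's TMM method, was 409.5 and 474.7 in the WT day 0 libraries and 777.6 and 867.6 at WT day 4. In S23DKO it was 382.3 and 385.9 at day 0 and 526.0 and 576.3 at day 4. S4KO had 981.7 and 1015 CPM at day 0 and 931.5 and 1309 CPM at day 4. Both S4KO groups were above every other library, and day 4 was above day 0 without overlap in WT and in S23DKO. The order of the group means from low to high was S23DKO day 0, WT day 0, S23DKO day 4, WT day 4, S4KO day 0 and S4KO day 4, and only the last 2 overlapped.

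From WT day 0 to day 4, Cdh1 rose by a log2 fold change of 0.90 ± 0.20 (SE, edgeR's quasi-likelihood test, adjusted p = 0.00519, n = 2 libraries in each group here and below). The WT day 0 libraries stood apart in ribosomal-protein counts. Their part in this rise, and in the day 0 comparison of S4KO with WT below, was not tested. Leaving out WT day 0 replicate 1 ended the call (adjusted p = 0.0605). In S23DKO the log2 fold change was 0.52 ± 0.20 (adjusted p = 0.139) and in S4KO 0.17 ± 0.20 (adjusted p = 0.653). The test of the difference between genotypes in that change did not pass, at -0.37 ± 0.29 (adjusted p = 0.407) for S23DKO against WT and -0.73 ± 0.29 (adjusted p = 0.180) for S4KO against WT.

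At day 0, Cdh1 in S4KO was 2.26-fold above WT (log2 fold change 1.18 ± 0.21, adjusted p = 0.00809). It was also higher in S4KO than in S23DKO, 2.60-fold at day 0 (1.38 ± 0.21, adjusted p = 0.00402) and 2.03-fold at day 4 (1.02 ± 0.21, adjusted p = 0.00904). Against WT at day 4 the difference of 0.45 ± 0.20 did not pass (adjusted p = 0.349), although the S4KO libraries were above those of WT. Leaving out WT day 0 replicate 1 (adjusted p = 0.113) or the first S4KO day 0 library (0.0526) ended the day 0 call against WT. The day 4 call against S23DKO was lost without either S23DKO library or S4KO replicate 2, while the day 0 call against S23DKO held in every alternative fit.

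Other genes of chromosome 8 were also higher in S4KO. The median log2 fold change of 744 chromosome 8 genes against WT was 0.51 at day 0 and 0.58 at day 4. The other 18 autosomes had medians from -0.27 to 0.17 at day 0 and from -0.32 to 0.28 at day 4. Against S23DKO the chromosome 8 median was 0.69 at day 0 and 0.67 at day 4. Cdh1 thus lay above its chromosome's median at day 0 and, against S23DKO, at day 4, and below it against WT at day 4. The part that chromosome 8 plays in the Cdh1 difference was not tested.

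**Figure D1:**
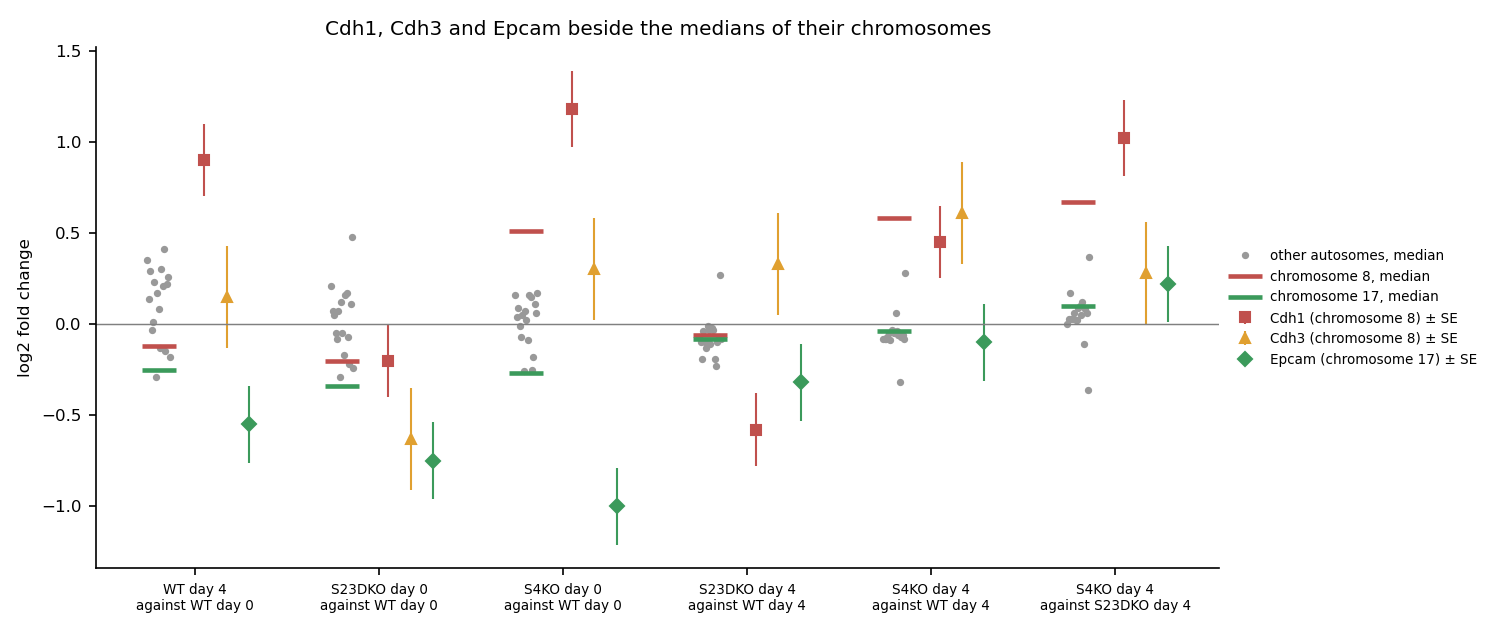
Log2 fold change (vertical axis) of Cdh1, Cdh3 and Epcam with SE in 6 comparisons, beside the median of chromosome 8 (red bar), of chromosome 17 (green bar) and of each other autosome (grey points), over genes averaging 1 CPM or more. The chromosome 8 median stood at 0.51 and 0.58 in S4KO against WT, above every other autosome.

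Cdh2 was nearly off in every day 0 group and rose strongly in WT. It had 2.35 and 3.37 CPM at WT day 0 and 56.9 and 53.6 CPM at WT day 4. S23DKO had 4.34 and 1.43 CPM at day 0 and 2.44 and 4.55 CPM at day 4. S4KO had 6.83 and 3.69 CPM at day 0 and 12.3 and 23.4 CPM at day 4. WT day 4 was above all other libraries, S4KO day 4 above the remaining 8, and in the order of their means each of those 4 groups overlapped the next.

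The WT rise in Cdh2 was 4.27 ± 0.58 (adjusted p = 0.000427) and held in every alternative fit. At S23DKO day 4 against WT day 4 Cdh2 was 15.8-fold lower (-3.98 ± 0.57, adjusted p = 0.00134), which also held throughout. The change over 4 days in S23DKO was 0.27 ± 0.52 (adjusted p = 0.791). The difference between that change and the WT change passed the test, at -4.0 ± 0.76 (adjusted p = 0.0218), but was lost when any of 6 of the 8 libraries was left out. The median of genes on chromosome 18, where Cdh2 lies, was 0.48 at day 0 and 0.27 at day 4 in S23DKO against WT, the highest autosome in both. It was -0.36 in S4KO against S23DKO at day 4, the lowest autosome. Its part in the Cdh2 differences was not tested.

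In S4KO, Cdh2 was 3.39-fold higher at day 4 than at day 0, and the 2 groups did not overlap. The log2 fold change of 1.76 ± 0.53 did not pass (adjusted p = 0.0607), nor did the difference from WT at day 4 of -1.63 ± 0.52 (adjusted p = 0.158). The first passed with DESeq2 (0.00966), without a filter on low counts (0.00827), with limma on log2(FPKM + 1) (0.0229) and log2(FPKM + 0.1) (0.0494) and without S4KO day 4 replicate 1 (0.0484), and the second with DESeq2 (0.0295), without a filter (0.0194) and with limma on log2(FPKM + 1) (0.0179). S4KO was higher than S23DKO at day 4 by 2.35 ± 0.54 (adjusted p = 0.0169). This call was lost without S23DKO replicate 1, S23DKO replicate 2 or S4KO replicate 2.

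Cdh11 had the clearest pattern of the 5 genes. Its counts were 28 and 22 at WT day 0 and 1281 and 960 at WT day 4. They were 30 and 26 at S23DKO day 0, 29 and 34 at S23DKO day 4, 30 and 23 at S4KO day 0, and 57 and 107 at S4KO day 4. In CPM, WT day 4 was at 23.6 and 18.4, S4KO day 4 at 1.08 and 3.33, and the other 8 libraries between 0.456 and 0.671. WT day 4 was above every other library and S4KO day 4 above the remaining 8, while the other 4 groups overlapped.

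Cdh11 rose in WT by 5.19 ± 0.55 (adjusted p = 0.000171). In S23DKO the change was -0.03 ± 0.51 (adjusted p = 0.982). Against WT at day 4 it was 38.0-fold lower in S23DKO (-5.25 ± 0.55, adjusted p = 0.000226) and 9.65-fold lower in S4KO (-3.27 ± 0.49, adjusted p = 0.00874). These 3 calls held in every alternative fit, with sizes of 2.12, -2.10 and -1.78 in limma on log2(FPKM + 1), a scale that compresses values below 1 FPKM. The difference between the S23DKO change and the WT change was -5.22 ± 0.73 (adjusted p = 0.00972), and was lost without WT day 0 replicate 1 (0.0567) or S23DKO day 4 replicate 1 (0.0524).

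Within S4KO, Cdh11 rose 4.03-fold (2.01 ± 0.50, adjusted p = 0.0304), and at day 4 it was 3.94-fold higher than in S23DKO (1.98 ± 0.50, adjusted p = 0.0249). S4KO day 4 replicate 2, the shallowest library, held the larger share of this signal: without it the change within S4KO was 0.98 on the log2 scale, and that call was also lost without either S4KO day 0 library. The higher level than in S23DKO was lost without S4KO replicate 2 or either S23DKO library. Both calls were also lost with limma, where they measured 0.32 each on log2(FPKM + 1). The difference between the S4KO change and the WT change did not pass at -3.18 ± 0.70 (adjusted p = 0.0911). Cdh11 also lies on chromosome 8, whose median at day 4 was 0.67 in S4KO against S23DKO and 0.58 against WT. The part of that chromosome in the Cdh11 differences was not tested.

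Cdh3 encodes P-cadherin, a type I cadherin of basal epithelia and placenta. It had 48.9 and 65.8 CPM at WT day 0 and 46.6 and 80.8 CPM at WT day 4. S23DKO went from 31.4 and 42.9 CPM to 81.4 and 78.8 CPM, and S4KO from 65.4 and 75.5 CPM to 96.4 and 97.7 CPM. The days overlapped in WT and did not overlap in either knockout.

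Cdh3 rose 2.16-fold in S23DKO (1.11 ± 0.28, adjusted p = 0.0385) and did not pass in S4KO (0.46 ± 0.28, adjusted p = 0.322) or WT (0.15 ± 0.28, adjusted p = 0.677). The S23DKO call was lost without S23DKO day 0 replicate 1, without either S23DKO day 4 library and in a fit without the WT day 0 libraries (adjusted p = 0.0519). The difference of the S23DKO change from the WT change was 0.96 ± 0.39 (adjusted p = 0.135). In order of mean level, S23DKO day 0 was lowest, WT day 0, WT day 4 and S4KO day 0 followed with overlap between neighbours, and S23DKO day 4 and S4KO day 4 were highest, each without overlap with the group before it. Against WT at day 4, Cdh3 in S4KO stood at 0.61 ± 0.28 (adjusted p = 0.347), beside the chromosome 8 median of 0.58 given above.

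Epcam was highest in the WT day 0 libraries, at 320.0 and 331.4 CPM, and had 208.4 and 235.4 CPM at WT day 4. S23DKO had 200.3 and 187.2 CPM at day 0 and 188.2 and 167.6 CPM at day 4. S4KO had 153.3 and 172.0 CPM at day 0 and 167.2 and 246.9 CPM at day 4. The WT day 0 libraries were above all others, and in the order of group means every other group overlapped its neighbour.

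Epcam was lower than WT at day 0 in S23DKO (-0.75 ± 0.21, adjusted p = 0.0218) and in S4KO (-1.0 ± 0.21, adjusted p = 0.0126). Both comparisons include the WT day 0 libraries, which stood apart in ribosomal-protein counts. Without replicate 1 or 2 of WT day 0 the values were -0.78 and -0.73 in S23DKO and -1.03 and -0.98 in S4KO, and none of these 4 passed (adjusted p from 0.0574 to 0.115). The S23DKO call was also lost without S23DKO day 0 replicate 2 (-0.68), the library with the high mitochondrial share, after a correction for transcript length and GC content (adjusted p = 0.0804) and with limma on the deposited FPKM, and the S4KO call without S4KO day 0 replicate 1. The median of chromosome 17 genes was -0.34 in the first comparison and -0.27 in the second, and its part in the Epcam difference was not tested. The WT change to day 4 was -0.55 ± 0.21 and did not pass (adjusted p = 0.0529), although it did with RLE size factors (0.0365), DESeq2 (0.0181) and a filter of 1 CPM (0.0355). No comparison of Epcam at day 4 passed in any fit.

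**Figure D2:**
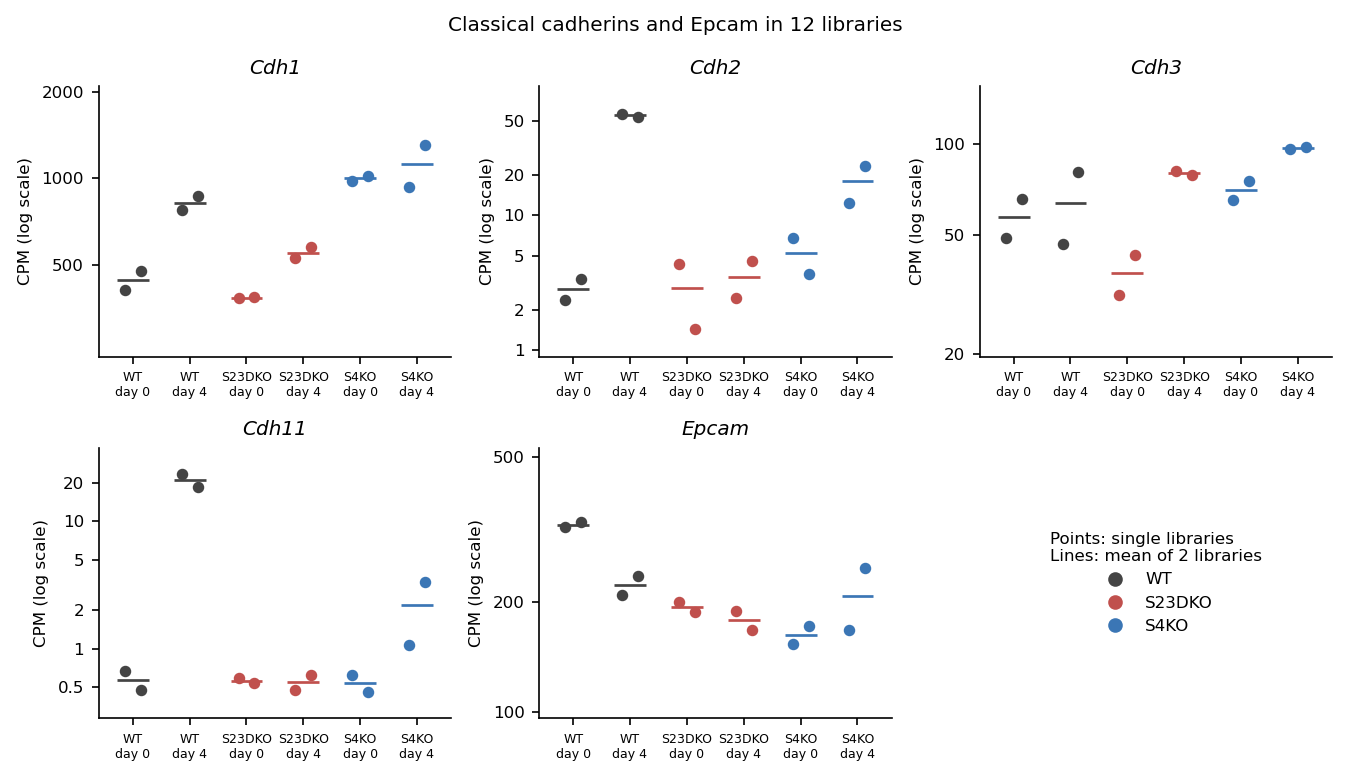
CPM on a log axis for each of the 5 genes in 12 libraries, grouped by genotype and day (points are libraries, lines the mean of 2). WT day 4 stands alone for Cdh2 (53.6 and 56.9 CPM) and Cdh11 (18.4 and 23.6 CPM), the S4KO groups are highest for Cdh1, and WT day 0 is highest for Epcam.

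Read per comparison, 3 of the 5 genes were called in WT day 4 against day 0, where 43.6% of all tested genes were. In S23DKO over the same time 1 was called against a background of 7.03%, and in S4KO 1 against 8.90%. At day 0, 1 was called in S23DKO against WT (background 31.0%), 2 in S4KO against WT (19.6%) and 1 in S4KO against S23DKO (5.53%). At day 4, 2 were called in S23DKO against WT (15.2%), 1 in S4KO against WT (1.73%) and 3 in S4KO against S23DKO (12.3%). For the difference of the S23DKO change from the WT change 2 were called (6.10%). For that of S4KO 0 were called (0.150%), with 4 of the 5 at an unadjusted p under 0.05, while DESeq2 called 3 and limma on log2(FPKM + 1) called 2. Comparisons that have a group in common share its libraries and are not independent.

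**Figure D3:**
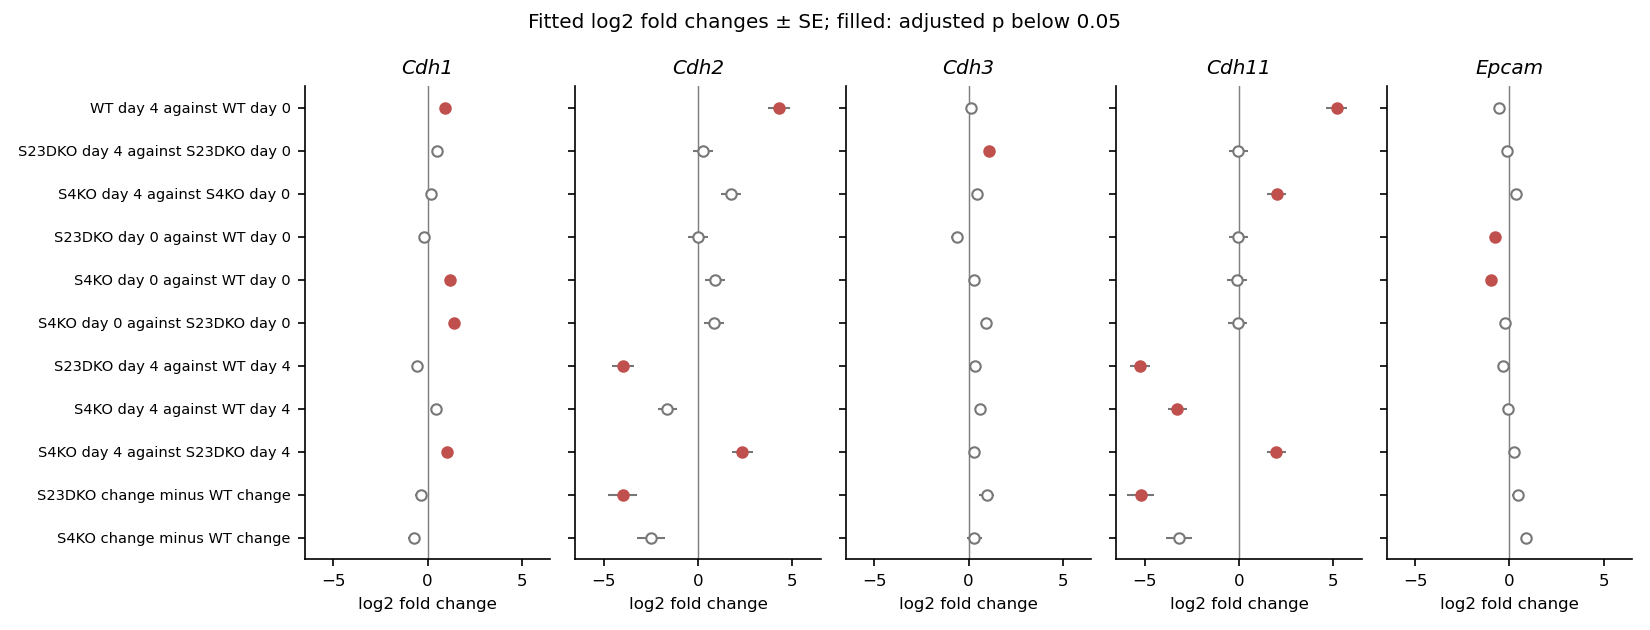
Log2 fold change with SE (horizontal axis) of the 5 genes in 11 comparisons (rows), with filled points at an adjusted p below 0.05. The largest calls are those of Cdh11 and Cdh2 in WT over time (5.19 and 4.27) and in S23DKO against WT at day 4 (-5.25 and -3.98).

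Levels of different genes are compared per transcript length, in the deposited FPKM (sequenced fragments per kilobase of transcript, corrected for library depth). Cdh1 ran from 76.7 FPKM in a WT day 0 library to 296.8 FPKM in an S4KO day 4 library, and lay between the 96.3 and 99.4 percentiles of all genes. Epcam ran from 86.4 to 161.2 FPKM, Cdh3 from 7.12 to 22.7, Cdh2 from 0.304 to 11.8 and Cdh11 from 0.0724 to 4.19. Among the 4 cadherins Cdh1 took 85.7% to 93.1% of the summed FPKM in every library.

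In bulk RNA, N-cadherin transcripts therefore stayed well below those of E-cadherin in every library. Whether some of the cells exchanged E-cadherin for N-cadherin cannot be seen in such data. Cdh2 was 0.522% and 0.644% of Cdh1 in FPKM at WT day 0 and 6.70% and 5.64% at WT day 4. In S23DKO it was 1.03% and 0.337% at day 0 and 0.423% and 0.719% at day 4. In S4KO it was 0.634% and 0.331% at day 0 and 1.21% and 1.63% at day 4. WT day 4 was above all other libraries, S4KO day 4 above the remaining 8, and the rest overlapped. With 1 added to both FPKM values, S4KO day 4 overlapped WT day 0 (log2 ratios of -5.91 and -5.67 against -5.79 and -5.91), while WT day 4 stayed above all others (-3.79 and -4.03).

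**Figure D4:**
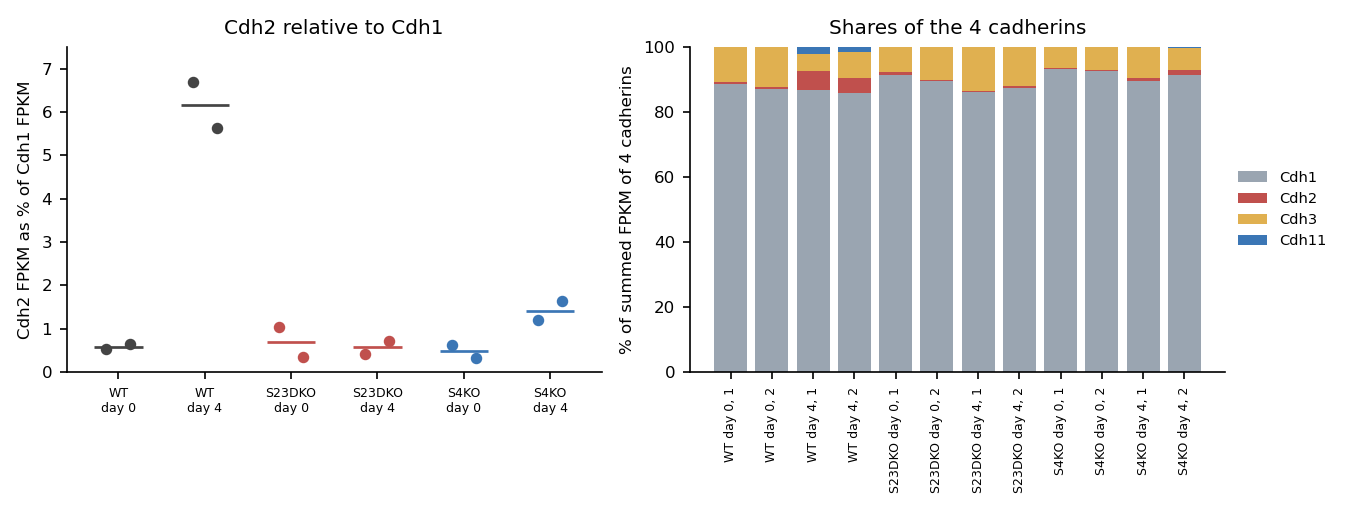
Left, Cdh2 FPKM as a percentage of Cdh1 FPKM in each library (points) with the mean of 2 (lines), and right, the share of each of 4 cadherins in their summed FPKM per library. Cdh2 reached 5.64% and 6.70% of Cdh1 at WT day 4, and Cdh1 held 85.7% or more of the sum throughout.

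Markers of other cell types also differed between the groups. The summed level of 10 markers of primitive streak and mesoderm was 525 to 607 CPM at WT day 4. It was 34.6 to 47.0 CPM at S23DKO day 4 and 25.2 to 41.7 CPM at S4KO day 4. At day 4, 7 of the 10 were called below WT in S23DKO and 8 in S4KO, and 0 above. Pdgfra was the highest of them in S23DKO, at 24.2 CPM against 31.6 CPM in WT and 4.27 CPM in S4KO. Against S23DKO, S4KO had 4 called higher (Mixl1, Eomes, Lhx1 and Fgf8) and 1 lower (Pdgfra). The shares of all genes called in these comparisons were, in order, 15.2%, 1.73% and 12.3%. The 10 markers of extraembryonic endoderm summed to 750 to 813 CPM at WT day 4. They summed to 132 to 199 CPM at S23DKO day 4 and to 37.3 to 69.2 CPM at S4KO day 4. The part of these cell types in the Cdh2 and Cdh11 differences was not tested. The 10 trophectoderm markers summed to 169 to 182 CPM at S23DKO day 0 and 558 to 597 CPM at S23DKO day 4, against 9.35 to 23 CPM in all other libraries. Their part in the S23DKO rise of Cdh3 was not tested. The 8 neural markers summed to 157 to 158 CPM at S4KO day 0 and to 119 to 181 CPM at S4KO day 4. Their sum was 50.4 to 51.2 CPM at S23DKO day 4 and 139 to 157 CPM at WT day 4. At WT day 4 Nes alone was at 138 CPM, with Sox1 at 0.458, Pax6 at 1.21 and Tubb3 at 6.0 CPM. These were at 14.2, 8.14, 10.7 and 124 CPM at S4KO day 0. At S4KO day 4 they were at 70.3, 16.1, 17.1 and 39.7 CPM. In S4KO, Sox1 (5.12 ± 0.65, adjusted p = 0.00358), Pax6 (3.82 ± 0.55, adjusted p = 0.00663) and Tubb3 were called above WT there. No neural marker was called below WT, and 1.73% of all tested genes were called there in either direction. Of the 3 neural calls only that of Sox1 held in every alternative fit. Of the 7 tested, 3 were higher in S4KO than in S23DKO at day 4 and 0 lower, where 12.3% of all tested genes were called in either direction. Among the 3 were Sox1 (4.19 ± 0.61, adjusted p = 0.00189) and Pax6 (3.73 ± 0.55, adjusted p = 0.00189), transcription factors of neural progenitors. Their part in the higher Cdh2 of S4KO was not tested. The 10 fibroblast markers summed to 44.2 to 156 CPM, with Lum at 0 in 5 of the 6 groups. Fbln1 had group means of 50.4 to 83.4 CPM. At day 4, Postn was called higher in S23DKO than in WT (10.1 against 0.083 CPM), and Thy1 and Dcn were called lower. The 8 ES cell markers summed to 2181 to 4305 CPM at day 0 and 714 to 2317 CPM at day 4.

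Over the 12 libraries, the genes most like Cdh11 were Lhx1 (Pearson r of log2(CPM + 1) 0.992), T (0.991) and Ppp4r4 (0.982), the first 2 being transcription factors of the early streak and its derivatives. Those most like Cdh2 were Ncbp1 (0.980), Cachd1 (0.974) and St6gal1 (0.963). For Cdh1 they were Terf2ip (0.969) and Zfp90 (0.965), both on chromosome 8, and Paqr8 (0.948). Zfp90 lies 176752 bases from Cdh1. Cdh3 was most like Vps37c (0.882), Irf2bp2 (0.871) and Acot11 (0.868), and Epcam most like Cks1b (0.948), Ube2j2 (0.938) and Sec61b (0.937). The search ran over 11165 genes, so high values are partly selected, and points of 1 group share their genotype and day. Between the 5 genes, Cdh2 and Cdh11 had r = 0.92, Cdh1 and Cdh3 0.70, and Epcam no value outside -0.30 to 0.15 with the others.

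Among the other classical cadherins, named members rose in WT, where 23.8% of all tested genes rose and 19.9% fell. Those shares are the background for each list count in WT below. Of 5 type I genes tested, Cdh4 (R-cadherin) joined Cdh1 and Cdh2 in rising at WT day 4, from 0.869 to 5.29 CPM (2.60 ± 0.47, adjusted p = 0.00150). Of 12 type II genes tested, 5 rose and 0 fell, and in all the share called was close to the 43.6% of all genes. Their median log2 fold change was 2.94 against 0.08 over all genes, or 2.64 with the 4 genes that had at most 3 counts in a group set to that floor. Beside Cdh11 these were Cdh10 (3.19 ± 0.68, adjusted p = 0.00369), Cdh24 (1.53 ± 0.45, adjusted p = 0.0178), Cdh6 (from 0.0324 to 4.97 CPM, with 3 counts in all at day 0) and Cdh20. Cdh20 did not exceed 22 counts in any library and lost its call without 3 of the 4 libraries. The Cdh24 call was lost without WT day 4 replicate 2 and without each WT day 0 library, and without WT day 0 replicate 1 the list count was 3.

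Of the type II cadherins at S23DKO day 4, 1 was higher than in WT and 4 were lower, where 15.2% of all tested genes were called in either direction, with a median of -4.48, or -2.77 with genes at or under the floor set to it. Cdh10 was lower (0.552 against 7.91 CPM, -3.84 ± 0.70, adjusted p = 0.00477), as were Cdh11, Cdh9 and Cdh20, the last with 0 counts in S23DKO. The calls of Cdh9 and Cdh20 were lost without any 1 of the 4 libraries, and 1 to 3 genes of the list were lower in those fits. Cdh6 was not lower, at 4.04 against 4.97 CPM (-0.30 ± 0.54, adjusted p = 0.763). Cdh5, the VE-cadherin of endothelium, was the one that was higher, at 42.6 CPM against 0.349 CPM in WT (6.92 ± 0.80, adjusted p = 0.000405). It was already higher at day 0, at 8.25 against 0.0541 CPM, where the WT libraries had 0 and 5 counts (7.13 ± 0.92, adjusted p = 0.00103), and higher than in S4KO at day 4 (-4.31 ± 0.69 for S4KO against S23DKO, adjusted p = 0.00305). These 3 Cdh5 calls held in every alternative fit, and Cdh10 lost its call without S23DKO day 4 replicate 1.

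The proteins that anchor cadherins to the cell cortex were followed as catenins and nectins. In WT 6 of 14 rose and 0 fell, a share called that was close to the 43.6% of all genes. Among them were Vcl (vinculin, 2.76 ± 0.47, adjusted p = 0.00122), Nectin1 and Afdn. Another was Ctnnd1 (p120-catenin, which stabilises cadherins at the membrane, 1.57 ± 0.27, adjusted p = 0.00129). At day 0 Vcl was at 18.0 CPM in WT, 111 CPM in S23DKO and 98.5 CPM in S4KO. Nectin1 was at 18.2, 21.6 and 38.0 CPM in the same order. The WT day 0 libraries stood apart in ribosomal-protein counts, and their part in these differences was not tested. The calls of Nectin1 and Afdn were each lost without WT day 0 replicate 1 and at least 1 other library, and without that replicate 3 of 14 rose. Under other settings up to 4 fell, the most with the correction for gene length and GC content, where 5 rose. Over the same time 0 of 14 passed in S23DKO and 1 in S4KO (Ctnna2, lost without any of 3 of the 4 libraries). At day 0, 5 of 14 were higher in S23DKO than in WT (16.7% of all genes were), including Vcl (2.62 ± 0.47, adjusted p = 0.00350), and 1 to 3 were with a library left out.

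Of 11 desmosomal genes, 5 rose and 1 fell in WT, against the 43.6% of all genes called there. Dsc2 (desmocollin, itself a cadherin) was at 2.31 CPM at day 0 and 26.1 CPM at day 4 (3.50 ± 0.55, adjusted p = 0.000780). Dsp (desmoplakin) rose by 2.22 ± 0.20 (adjusted p = 9.23e-05). At day 0 Dsp was at 25.3 CPM in WT, 82.0 CPM in S23DKO and 90.5 CPM in S4KO. Dsc2 was at 2.31, 18.2 and 2.54 CPM in the same order. The part of the WT day 0 libraries, which stood apart in ribosomal-protein counts, was not tested. At day 4, 6 of 11 were higher in S23DKO than in WT and 0 lower, with a median of 1.14 against -0.03 over all genes, of which 7.21% were higher. Without either S23DKO library 3 were higher. Among them Pkp2 was above WT by 1.22 ± 0.21 (adjusted p = 0.00313) and Ppl by 1.58 ± 0.30 (adjusted p = 0.00555), and both held in every alternative fit. The trophectoderm markers, which were also higher in S23DKO, are epithelial, and their part in this difference was not tested. Nor was that of the chromosomes on which the desmosomal genes lie.

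Of 17 tight junction genes, 9 rose and 1 fell in WT, beside the 43.6% of all genes called, and 4 rose without WT day 0 replicate 1 and 5 without replicate 2. Tjp1, which encodes ZO-1, rose by 2.21 ± 0.32 (adjusted p = 0.000559), Ocln (occludin) by 1.83 ± 0.35 (adjusted p = 0.00203) and Patj by 2.41 ± 0.26 (adjusted p = 0.000195). Cldn4, a claudin of trophectoderm and other epithelia, fell from 279 to 76.8 CPM (-1.86 ± 0.38, adjusted p = 0.00305). At day 0 Tjp1 was at 66.9 CPM in WT, 197 CPM in S23DKO and 185 CPM in S4KO. Patj was at 17.1, 24.8 and 17.9 CPM in the same order. The part of the WT day 0 libraries, which stood apart in ribosomal-protein counts, was not tested. In S23DKO 4 rose and 0 fell, where 3.57% of all genes rose, and in S4KO 5 rose and 0 fell, where 5.08% of all genes rose, with Patj, Cldn6, Cgn and Marveld3 called in both. Patj was at 24.8 and 70.0 CPM on the 2 days in S23DKO and at 17.9 and 63.3 CPM in S4KO. With a library left out the count ran from 0 to 3 in S23DKO and from 2 to 6 in S4KO, where the calls of Patj and Cldn6 held throughout.

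Of 16 genes listed as partners and proteases of Epcam, 6 rose and 2 fell in WT, near the 43.6% of all genes called, with 3 rising without WT day 0 replicate 2 and 4 without replicate 1. Cd9, a tetraspanin that binds Epcam, fell from 253 to 77.5 CPM (-1.71 ± 0.21, adjusted p = 0.000302), and Spint2, a protease inhibitor, from 290 to 101 CPM (-1.52 ± 0.26, adjusted p = 0.00129). At S23DKO day 4, Cd9 was at 262 CPM, 1.76 ± 0.21 above WT (adjusted p = 0.000522). Cldn7, the claudin bound by Epcam, was lower at day 0 in S4KO than in WT (11.4 against 52.8 CPM, -2.21 ± 0.58, adjusted p = 0.0241). Leaving out S4KO day 0 replicate 1, or either library of WT day 0, ended that call.

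Of 10 regulators of epithelial identity, 6 were higher in S23DKO than in WT at day 4 and 0 lower, where 7.21% of all genes were higher. With a library left out, 1 to 3 of the 10 were higher. The trophectoderm markers were higher there too, and their part in these values was not tested. Elf3 was at 162 CPM against 26.9 CPM (2.59 ± 0.40, adjusted p = 0.00203) and held in every alternative fit. Esrp2, a splicing regulator of epithelia, was higher by 1.46 ± 0.28 (adjusted p = 0.00560), without S23DKO replicate 2 no longer called. Its relative Esrp1 rose over time in all 3 genotypes, by 1.57 ± 0.23 in WT (adjusted p = 0.000629), 1.69 ± 0.23 in S23DKO (adjusted p = 0.00561) and 2.50 ± 0.24 in S4KO (adjusted p = 0.000583), and the S23DKO call was lost without S23DKO day 4 replicate 2.

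Of the 8 repressors of Cdh1, 3 rose and 1 fell in WT, near the 43.6% of all genes called. Zeb2 rose from 0.631 to 9.30 CPM (3.87 ± 0.66, adjusted p = 0.00115) in every alternative fit. Snai1 (1.91 ± 0.71, adjusted p = 0.0479) and Tcf4 (1.11 ± 0.30, adjusted p = 0.0119) lost their calls without any of 3 of the 4 libraries. Snai1 also lost its call with the replicate block, and Tcf4 with the length and GC correction, where its value turned negative. The one that fell was Snai2, which was at or below 0.943 CPM in both groups and also lost its call without any of 3 of the 4 libraries. At day 4 Zeb2 was at 11.3 CPM in S4KO and at 1.17 CPM in S23DKO. It was lower in S23DKO than in WT (-3.00 ± 0.62, adjusted p = 0.00878) and higher in S4KO than in S23DKO (3.28 ± 0.63, adjusted p = 0.00709), and both were lost without S23DKO day 4 replicate 1. Snai1 at day 4 had 10.5 CPM in S23DKO, 6.74 CPM in WT and 2.38 CPM in S4KO. Of 10 mesenchymal genes 0 rose and 1 fell in WT, Vim (vimentin), from 166 to 47.0 CPM (-1.82 ± 0.43, adjusted p = 0.00599). Vim also fell over time in S23DKO (-1.6 ± 0.42, adjusted p = 0.0457) and in S4KO (-2.05 ± 0.43, adjusted p = 0.0157). Each of those knockout calls was lost in at least 1 fit with a library left out.

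**Figure D5:**
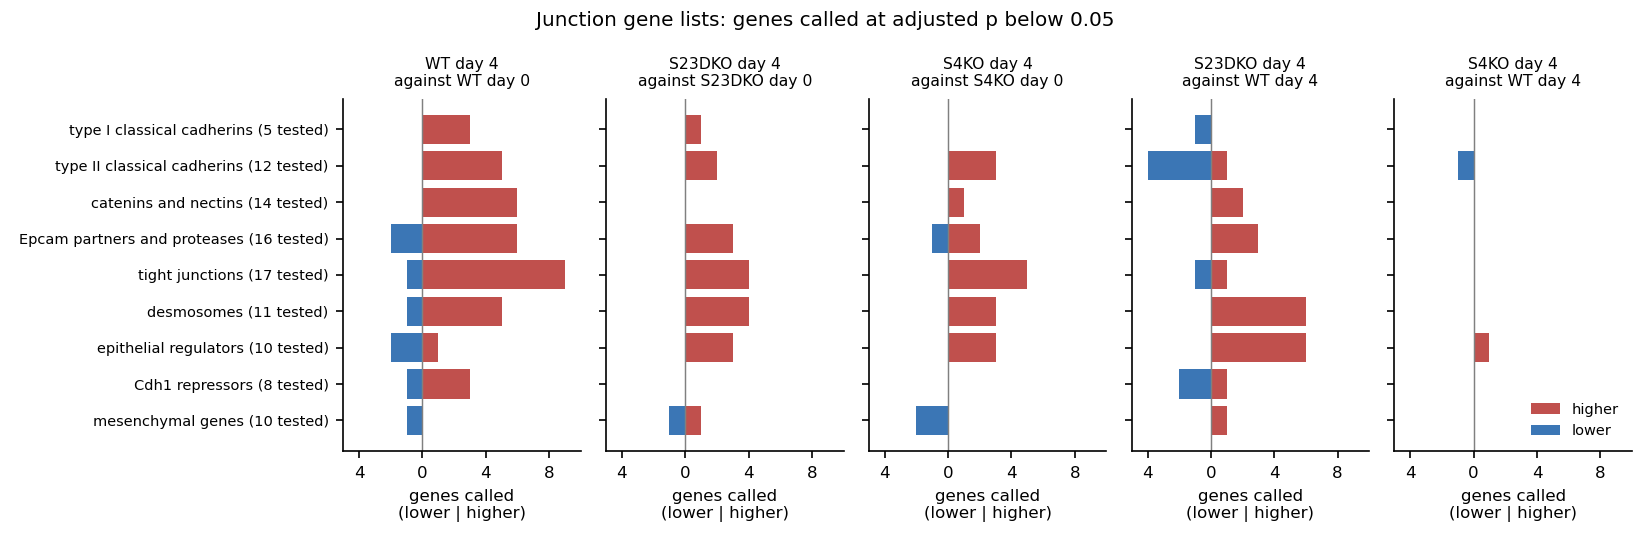
Number of genes called higher (red, right of 0) or lower (blue, left of 0) at an adjusted p below 0.05 in 9 lists of junction and related genes (rows) in 5 comparisons (panels). In WT over time 9 of 17 tight junction genes rose (23.8% of all genes did), and in S23DKO against WT at day 4 6 of 11 desmosomal genes were higher (7.21% of all genes).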

How the data were processed

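RNA was taken from mouse ES cells labelled E14Tg2a.IV of 3 genotypes at day 0 and day 4, with 2 libraries in each of 6 groups. Groups were taken from the sample titles, which name genotype, day and replicate. The counts are whole numbers per Ensembl gene ID as deposited by the authors, with no normalization recorded. The FPKM values were also deposited by the authors, 1 row per symbol. Per the submitters' processing notes, the build was mm10 and StringTie, Cufflinks and DESeq2 were among the tools. The aligner, annotation and strand setting are not given in the sources used here. Of 32285 gene IDs, 32158 matched a symbol in GENCODE M21.

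Counts were fitted with edgeR 4.0.16 (R 4.3.3) by the quasi-likelihood test on all 12 libraries, with TMM scaling, filterByExpr, 1 coefficient per group and Benjamini-Hochberg adjustment over 18693 genes. The threshold for a call was an adjusted p of 0.05. CPM are scaled by TMM, and a standard error is the size of a log2 fold change divided by the square root of F. Alternatives were RLE size factors, the DESeq2 1.42.0 Wald test, at least 1 CPM in 2 libraries, no filter, limma 3.58.1 on log2(FPKM + 1) and log2(FPKM + 0.1), a block for the replicate number, a length and GC correction by splines (5 degrees of freedom) and leaving out each library. The lone library left in a group was taken to vary as the other groups do. A fit without the WT day 0 libraries was chosen after seeing the data.

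The 5 genes and all gene lists were chosen with earlier results of these data known. In each list and comparison the rule named up to 4 called genes with the largest change and a mean of at least 5 CPM in the higher group, of which some are given here and 1 is not reported here. For each of the 5 genes it named the 3 with the most similar profile, passing over gene models without an established name. Cdh6, Cdh9, Cdh20, Ctnna2, Snai2, and Hprt and the Y-linked genes were named after their values were seen. Within groups the libraries were not copies of each other (chi-square per gene 31.2 to 248). Scripts were tested on simulated data. Total counts of 31566376 to 55806858 put counting error well below the spread between libraries except at the lowest levels. Promoter sequence is from RefSeq (GRCm38.p6), found for 1 of the 5 genes.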

Additional observations from a re-analysis of the deposited data

Results flagged for a closer look

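The change from day 0 to day 4 differed between S23DKO and WT for Cdh2 and Cdh11, by the test of the difference itself. The S23DKO change minus the WT change was -4.0 ± 0.76 on the log2 scale for Cdh2 (edgeR, adjusted p = 0.0218) and -5.22 ± 0.73 for Cdh11 (adjusted p = 0.00972). Both WT day 4 libraries were above both WT day 0 libraries for each gene, and the S23DKO days overlapped.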

How the results depend on the processing

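Of the 17 called results, none changed direction: with another setting 137 of 145 values stayed past the threshold and 8 fell short of it, and with 1 library left out 44 of 76 stayed and 32 fell short. The 6 calls that held in every alternative were Cdh2 and Cdh11 in WT over time and in S23DKO against WT at day 4, Cdh11 in S4KO against WT at day 4, and Cdh1 in S4KO against S23DKO at day 0. Of 267 calls of list genes that the naming rule picked, 103 held in every alternative and 1 changed direction, Tcf4 in WT over time with the length and GC correction.

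The number of the 5 genes called changed as follows. For WT over time it was 4 with RLE size factors, DESeq2 and a filter of 1 CPM, and 2 to 3 with a library left out. For S23DKO against WT at day 4 it was 3 with the length and GC correction. For S23DKO over time it was 0 without the WT day 0 libraries and 0 to 1 with a library left out. For S4KO over time it was 2 with DESeq2 and without a filter, and 0 to 2 with a library left out. For S23DKO against WT at day 0 it was 0 with limma at either pseudocount and 0 to 1 with a library left out, and for S4KO against WT at day 0 it was 0 to 2. For S4KO against S23DKO it was 2 at day 0 with DESeq2, without a filter and with the length and GC correction, and at day 4 2 with limma at either pseudocount and 0 to 3 with a library left out. For S4KO against WT at day 4 it was 2 with DESeq2, without a filter and with limma on log2(FPKM + 1). For the S23DKO change minus the WT change it was 0 to 3 with a library left out. For the S4KO change minus the WT change it was 3 with DESeq2, 2 without a filter and with limma on log2(FPKM + 1), 1 with limma on log2(FPKM + 0.1), and 0 to 1 with a library left out.

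Values that were not called turned their sign in 34 alternatives, 18 with another setting and 16 with a library left out. With limma at the larger and smaller pseudocount, Cdh11 was 0.00 and 0.02 in S23DKO over time, 0.02 and 0.13 in S23DKO against WT at day 0, 0.03 and 0.18 in S4KO against WT at day 0 and 0.01 and 0.05 in S4KO against S23DKO at day 0. Cdh1 was 0.04 in S23DKO against WT at day 0, and Epcam 0.02 in S23DKO over time and -0.00 in S4KO against S23DKO at day 4. With the length and GC correction, Cdh2 was -0.47 in S23DKO against WT at day 0, Cdh11 0.04 in S4KO against S23DKO at day 0, and Epcam -0.01 for the S23DKO change minus the WT change. With at least 1 CPM in 2 libraries Cdh11 was 0.02 in S23DKO against WT at day 0. With a library left out, the values ran from -0.26 to 0.41 for Cdh3 in WT over time, from -0.11 to 0.33 for Cdh1 in S4KO over time, and in S23DKO over time from -0.32 to 1.27 for Cdh2 and from -0.27 to 0.12 for Cdh11. They ran from -0.99 to 0.62 for Cdh2 and from -0.26 to 0.24 for Cdh11 in S23DKO against WT at day 0. Cdh11 ran from -0.33 to 0.18 in S4KO against WT and from -0.33 to 0.13 in S4KO against S23DKO, both at day 0. At day 4, Epcam ran from -0.36 to 0.15 in S4KO against WT and from -0.09 to 0.42 in S4KO against S23DKO.

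The causes were not tested. The log2 ratio of Cdh2 to Cdh1 was -8.11 at WT day 0, -4.71 at WT day 4, -8.19 at S23DKO day 4, -8.45 at S4KO day 0 and -6.84 at S4KO day 4 from counts per kilobase of exon. With 1 added to both FPKM values it was -5.85 at WT day 0, -3.91 at WT day 4, -5.83 at S23DKO day 0, -6.26 at S23DKO day 4, -6.77 at S4KO day 0 and -5.79 at S4KO day 4. Depth limits Cdh11 below 1 CPM, where a library held 22 to 34 counts.

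Same-numbered libraries did not deviate together throughout (correlations from -0.147 to 0.339), so the numbers were not taken to pair the samples. Whether a number marks a shared culture or run is not given in the labels, and these correlations cannot decide it. With the replicate block, the number of the 5 genes called was 3 in WT over time, as without it, and was the same in every other comparison.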
